A study of Rattus norvegicus with 24 samples.

Results

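Cyp2b15, Cyp2c6v1 and Cyp2c37 are genes of the cytochrome P450 families 2B and 2C, and they were followed here in the livers of rats given 1 of 6 chemicals. Probes were taken by the gene name in the scanner files, by the gene's RefSeq record, or by its gene ID. They are 3 of 5240 genes that the arrays name. The 3 genes have 7 distinct probe sequences under 10 probe names, of 21333 distinct sequences on the arrays, and 6 of the 7 were bright enough to be tested. In hexachloroethane livers all 3 genes rose about 4-fold, by the brightest probe of each. Cyp2c6v1 and Cyp2c37 also rose more than 2-fold under monuron and under 1,2-dichlorobenzene, while the Cyp2b15 probe was 1.50-fold and 1.57-fold higher there, short of the 2-fold limit. Of the 3 probes named Cyp2c37, 2 rose in these 3 groups. Probe 154 did not, and after loess scaling it fell to 0.104 of the vehicle level under 1-amino-2-methylanthraquinone. The brightest probes of Cyp2c6v1 and Cyp2c37 overlap in sequence, so their signals may be shared. The rises also depended on the scaling. With each array centred on its median, only the rise of Cyp2b15 under hexachloroethane stayed above 2-fold among the 3 genes. That scaling also lowered other probes as bright as the Cyp2c6v1 probe, whose median log2 ratios lay between -1.51 and -0.95. The scanner software's own ratios kept the calls of the Cyp2c6v1 probe under hexachloroethane, monuron and 1,2-dichlorobenzene (log2 2.30, 1.53 and 1.41).

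The study gave male F344 rats, labelled 5 weeks old, a chemical by gavage once a day for 28 days, and measured liver RNA on 24 arrays of 2 colours. The groups of 4 rats each received hexachloroethane at 500 mg/kg/day, 1,2,3-trichloropropane at 50, 1-amino-2-methylanthraquinone at 150, 3-(4-chlorophenyl)-1,1-dimethylurea (the herbicide monuron) at 250, 1,2-dichlorobenzene at 300, or the antibiotic tetracycline hydrochloride at 1000 mg/kg/day. The first 4 are carcinogens and the last 2 are not, by the study's design; tetracycline was given in water and the others in corn oil. Each array held the RNA of 1 treated rat in the Cy3 channel and pooled RNA of vehicle rats in the Cy5 channel, so every value is a log2 ratio of treated over vehicle and the vehicle counts as 1 pooled sample. Whether the corn oil groups shared a pool is not given in the sources used here. Dyes were not swapped. No slide held more than 1 compound, and effects of the slide and of the compound cannot be told apart.

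Cytochrome P450 enzymes are haem proteins of the endoplasmic reticulum that oxidise drugs, steroids, fatty acids and foreign chemicals. In liver, genes of the 2B and 2C families are classical targets of the constitutive androstane receptor CAR (Nr1i3), which enters the nucleus after exposure to drugs such as phenobarbital, pairs with the retinoid X receptor and raises transcription of its targets. The pregnane X receptor PXR (Nr1i2) shares many of these targets, and 2B induction is the usual readout of CAR activation in rodent liver. CYP2C6 is a major P450 of rat liver that phenobarbital is known to raise. Cyp2c37 is a name known from mouse, where the enzyme oxidises arachidonic acid. Neither the activity of CAR nor any protein was measured here.

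Of the 6 tested probes, 5 carry the induction, and their sequences show which of them can be told apart. The first set lies in 1 stretch of 2C sequence, and the capitals mark bases identical to the Cyp2c6v1 probe 701008 at the aligned position (in 701008 itself, bases identical to probe 5192).
Cyp2c37 probe 5192: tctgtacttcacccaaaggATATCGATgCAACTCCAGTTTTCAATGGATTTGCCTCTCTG
Cyp2c37 probe 706161: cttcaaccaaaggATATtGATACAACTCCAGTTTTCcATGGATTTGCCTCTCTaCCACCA
Rn.91122 probe 501294: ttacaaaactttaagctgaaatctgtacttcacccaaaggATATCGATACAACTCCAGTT
Cyp2c6v1 probe 701008: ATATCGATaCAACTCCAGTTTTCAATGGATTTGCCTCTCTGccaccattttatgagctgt
The Cyp2c6v1 probe 6479 lies upstream in the same stretch and is tied to it by probe 705027, which reads the opposite strand; capitals mark the run that these 2 share as reverse complements.
Cyp2c6v1 probe 6479: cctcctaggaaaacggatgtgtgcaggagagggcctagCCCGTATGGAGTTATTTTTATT
Rn.91122 probe 705027: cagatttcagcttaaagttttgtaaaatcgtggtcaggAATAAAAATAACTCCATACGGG
The last set shares no stretch with any other probe and has no capitals; it holds both Cyp2b15 probes, the Cyp2c37 probe that fell, and a probe for a phenobarbital-inducible 2B messenger.
Cyp2b15 probe 705779: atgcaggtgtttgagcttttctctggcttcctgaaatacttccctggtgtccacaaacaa
Cyp2b15 probe 779: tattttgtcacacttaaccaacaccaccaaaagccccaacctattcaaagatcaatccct
Cyp2c37 probe 154: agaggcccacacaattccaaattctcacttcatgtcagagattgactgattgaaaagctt
P-450b probe 5209: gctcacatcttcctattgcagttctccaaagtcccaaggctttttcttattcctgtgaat

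The Cyp2c6v1 and Cyp2c37 probes overlapped in sequence across the gene names. Probe 5192, named Cyp2c37, and probe 701008, the Cyp2c6v1 RefSeq record, shared 41 aligned bases of which 40 were identical, with the 1 difference G28A (positions counted from 1 at the 5′ end of probe 5192, its base first). Probe 706161, also named Cyp2c37, shared 47 aligned bases with 701008, 44 of them identical, with the differences T18C, C37A and A54G counted along 706161. The 2 Cyp2c37 probes matched each other at 49 of 54 bases, so each shared a larger part of its aligned bases with the Cyp2c6v1 probe than with the other. Signals of probes this similar may be shared between transcripts, and the values named Cyp2c37 and Cyp2c6v1 below are uncertain to that extent.

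Laid end to end through these overlaps, 6 probes of the 2 genes and of their UniGene clusters spanned 173 bases counted from the first base of probe 6479. Probe 6479 covered bases 1 to 60, probe 705027 bases 39 to 98 on the opposite strand, probe 501294 bases 74 to 133, probe 5192 bases 95 to 154, probe 706161 bases 101 to 160 and probe 701008 bases 114 to 173. Probe 501294 carries only the UniGene cluster Rn.91122, which is also the cluster of 6479. The opposite-strand probe 705027 was above background on 0 of 24 arrays in either channel. An overlap here means at least 20 aligned bases at 85% identity or more, on either strand. A probe named Cyp2c39 (1334) also met this limit, with 19 of 22 aligned bases identical to the opposite strand of probe 705027, and was left out of the span as a probe of another gene.

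**Figure D1:**
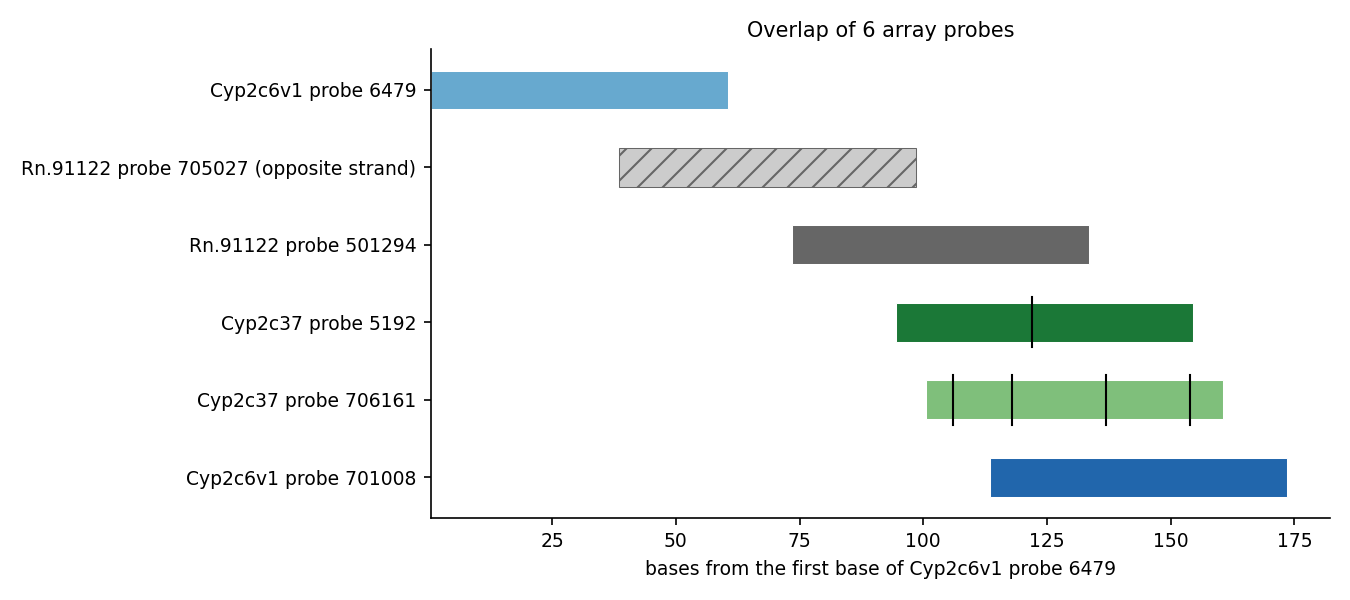
Position of the 6 overlapping 2C probes along the 173 bases that they span (x axis, bases from the first base of probe 6479; one bar per probe). The bar of the probe that reads the opposite strand is hatched, and black ticks on probes 5192 and 706161 mark bases that differ from 701008 or 501294. Probes of both gene names lie over the same bases.

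The name Cyp2b15 is less certain than the other names. Probe 779 carries the name itself but was not well above background in either channel on any of 24 arrays, so it gives no fold. Probe 705779 carries the name LOC685222, which is the gene ID of Cyp2b15 in the RefSeq table, and shares the UniGene cluster Rn.144570 with probe 779; it was taken in by that gene ID. The RefSeq table also gives Cyp2b15 as an older symbol of Cyp2b12, whose probe 701625 was above background on 0 of 24 arrays in either channel. Which of these genes the values of probe 705779 belong to rests on the gene ID and on the cluster shared with probe 779. Another probe of this cluster, 706228 (LOC502310), was above background only in the treated channel of the 4 hexachloroethane arrays. On average it was at least 1.37-fold higher than vehicle there. Its measured log2 ratios in these rats ranged from 0.06 to 0.83 (0.56 ± 0.34, SD). It was bright enough to be tested only through this group, where it is high, so no p is given for it. Its measured log2 means there were 6.94 in the treated channel and 6.38 in the vehicle channel, and the dim side was set at the lowest signal of probes well above background. In RefSeq (GRCr8) both Cyp2b15 and Cyp2c6v1 lie on chromosome 1. Cyp2b15 stands among Cyp2b14, Cyp2b12, Cyp2g1 and Cyp2a3, and Cyp2c6v1 beside Cyp2c7 and a pseudogene named after it. The RefSeq table has 8 protein-coding Cyp2b genes, 11 protein-coding Cyp2c genes and 5 pseudogenes named after Cyp2c6_v1, and it has 0 entries named Cyp2c37.

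The promoter of Cyp2b15 is the only one of the 3 in the RefSeq promoter table and is shown because its gene rose (GRCr8, chr1:91221615-91221914, plus strand, 250 bases before to 50 after the gene's start; AGGTCA in capitals).
Cyp2b15 promoter: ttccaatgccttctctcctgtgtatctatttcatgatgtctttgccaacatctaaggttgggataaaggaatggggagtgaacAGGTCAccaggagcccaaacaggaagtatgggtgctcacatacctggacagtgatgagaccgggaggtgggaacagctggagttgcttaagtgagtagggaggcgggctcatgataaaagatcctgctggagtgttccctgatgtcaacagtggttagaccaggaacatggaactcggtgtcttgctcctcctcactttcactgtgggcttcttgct
AGGTCA is the half-site that nuclear receptors such as CAR are known to bind in pairs. It starts 167 bases before the gene's start here, on the strand shown, and 16.2% of 33469 promoters of the same length hold it on either strand. Neither AGTTCA, which 14.5% of promoters hold, nor TATAAA, which 14.2% hold, was in this window on either strand.

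Across the arrays, between 59.0% and 71.2% of probes stood well above background for the treated rats, and between 63.5% and 75.4% for the vehicle pool. All 6 tested member probes were well above background in both channels on 24 of 24 arrays, and none was saturated. The 10 hepatocyte markers checked, among them Alb, Apoa1 and Ttr, were above background in both channels of all 24 arrays. A probe is called higher or lower at an adjusted p under 0.05 and at least 2-fold in the limma fit over 15557 probes. The p alone says little against vehicle, since 37.8% to 59.1% of all probes passed it under each compound. Because this is whole liver, fewer cells of a type and less RNA per cell cannot be told apart.

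Cyp2b15 (probe 705779) was highest in hexachloroethane livers, and was higher by less than 2-fold under 1,2-dichlorobenzene and monuron. The 4 hexachloroethane rats had log2 ratios over vehicle of 2.12, 1.87, 2.03 and 2.17. The 4 dichlorobenzene rats had 0.69, 0.79, 0.56 and 0.55, and the 4 monuron rats 0.63, 0.57, 0.52 and 0.63. All 12 of these rats were above the vehicle pool, and every hexachloroethane rat was above every other rat in the study. The remaining groups lay around the vehicle level. In trichloropropane rats the log2 ratios were 0.14, -0.28, -0.01 and 0.20. In 1-amino-2-methylanthraquinone rats they were -0.31, 0.06, 0.32 and -0.05, and in tetracycline rats -0.24, -0.05, 0.04 and -0.22. These 3 groups overlapped one another and none of their rats reached the lowest monuron rat.

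Cyp2b15 therefore averaged 2.05 ± 0.13 under hexachloroethane (SD, n = 4), a 4.13-fold level (adjusted p = 4.26e-13). Under 1,2-dichlorobenzene it averaged 0.65 ± 0.11 (1.57-fold, adjusted p = 9.72e-07) and under monuron 0.59 ± 0.05 (1.50-fold, adjusted p = 5.26e-06); neither reached 2-fold. The difference between hexachloroethane and 1,2-dichlorobenzene was 1.40 (95% interval 1.17 to 1.63, adjusted p = 2.65e-08), while 1,2-dichlorobenzene and monuron differed by 0.06 (-0.18 to 0.29, adjusted p = 0.755) and their rats overlapped. Monuron was above 1,2,3-trichloropropane by 0.57 (0.34 to 0.81, adjusted p = 0.000986) with no overlap of rats. Doses differ between compounds, so these differences set the groups of this study side by side and are not differences at a matched dose.

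Cyp2c6v1 (probe 701008, the brightest for this gene) rose under 3 compounds. The hexachloroethane rats had log2 ratios of 2.13, 1.91, 2.02 and 2.26. The monuron rats had 1.21, 1.22, 1.21 and 1.50, and the 1,2-dichlorobenzene rats 0.98, 1.40, 0.99 and 1.04. Hexachloroethane rats stood above all others, and the monuron and 1,2-dichlorobenzene rats overlapped. The 1-amino-2-methylanthraquinone rats had 0.46, 0.37, 0.66 and 0.60. The tetracycline rats had 0.49, 0.38, 0.29 and -0.06, and the trichloropropane rats 0.25, -0.31, -0.03 and 0.39. All anthraquinone rats were above the vehicle pool but below every dichlorobenzene rat, and the trichloropropane rats lay on both sides of 0.

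The Cyp2c6v1 level was 4.23-fold under hexachloroethane (log2 2.08 ± 0.15, adjusted p = 1.5e-12), 2.44-fold under monuron (1.29 ± 0.14, adjusted p = 2.29e-09) and 2.15-fold under 1,2-dichlorobenzene (1.10 ± 0.20, adjusted p = 9.05e-09; SD, n = 4 each). It was 1.44-fold under 1-amino-2-methylanthraquinone (0.52 ± 0.13, adjusted p = 9.5e-05), 1.21-fold under tetracycline (0.28 ± 0.24, adjusted p = 0.0285) and 0.07 ± 0.31 on the log2 scale under 1,2,3-trichloropropane (adjusted p = 0.555), none of which reached 2-fold. Hexachloroethane exceeded monuron by 0.80 (0.51 to 1.08, adjusted p = 0.000263). Monuron and 1,2-dichlorobenzene differed by 0.18 (-0.10 to 0.47, adjusted p = 0.356), and 1,2-dichlorobenzene exceeded 1-amino-2-methylanthraquinone by 0.58 (0.30 to 0.86, adjusted p = 0.00156). The lower end of the order, from the anthraquinone to tetracycline to trichloropropane, held steps of 0.25 and 0.20 (adjusted p = 0.152 and 0.264).

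The second Cyp2c6v1 probe, 6479, which the array calls Cyp2c6, gave the same order for the 4 highest compounds, with smaller ratios; tetracycline (-0.05) and 1,2,3-trichloropropane (-0.01) changed places at the low end. It rose 3.40-fold under hexachloroethane (1.76 ± 0.13, adjusted p = 2.67e-11) and 2.23-fold under monuron (1.16 ± 0.13, adjusted p = 1.27e-08). Under 1,2-dichlorobenzene its 4 rats had 0.82, 1.27, 0.89 and 0.88, a mean of 0.96 ± 0.21 that fell just short of 2-fold (1.95-fold, adjusted p = 8e-08). Without the lowest of them, rat 1, the mean was 1.01 and was called. The probe with the UniGene name alone, 501294, averaged 1.86 under hexachloroethane, 1.19 under monuron and 0.99 under 1,2-dichlorobenzene.

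Probes 5192 and 706161, named Cyp2c37, followed Cyp2c6v1 rat by rat. Probe 5192 had log2 ratios of 2.13, 1.94, 2.05 and 2.26 in hexachloroethane rats. It had 1.36, 1.25, 1.24 and 1.53 in monuron rats and 1.01, 1.46, 1.00 and 1.03 in 1,2-dichlorobenzene rats. As for Cyp2c6v1, hexachloroethane rats were the highest and rat 2 of the 1,2-dichlorobenzene group stood above the other 3. In 1-amino-2-methylanthraquinone rats probe 5192 had 0.35, 0.27, 0.62 and 0.53. In tetracycline rats it had 0.45, 0.29, 0.22 and -0.33, and in trichloropropane rats 0.21, -0.45, -0.09 and 0.32. Only the anthraquinone group of these 3 had all rats above the vehicle pool.

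Probe 5192 averaged 2.10 ± 0.13 under hexachloroethane (4.28-fold, adjusted p = 1.69e-11), 1.35 ± 0.14 under monuron (2.54-fold, adjusted p = 1.12e-08) and 1.13 ± 0.22 under 1,2-dichlorobenzene (2.18-fold, adjusted p = 6.38e-08). Probe 706161 averaged 2.00 ± 0.14 (3.99-fold, adjusted p = 1.5e-12), 1.29 ± 0.12 (2.44-fold, adjusted p = 1.29e-09) and 1.12 ± 0.16 (2.18-fold, adjusted p = 3.67e-09) in the same 3 groups. On probe 5192 hexachloroethane exceeded monuron by 0.75 (0.42 to 1.09, adjusted p = 0.00187), monuron and 1,2-dichlorobenzene differed by 0.22 (-0.11 to 0.55, adjusted p = 0.35), and 1,2-dichlorobenzene exceeded the anthraquinone by 0.68 (0.35 to 1.02, adjusted p = 0.00154).

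**Figure D2:**
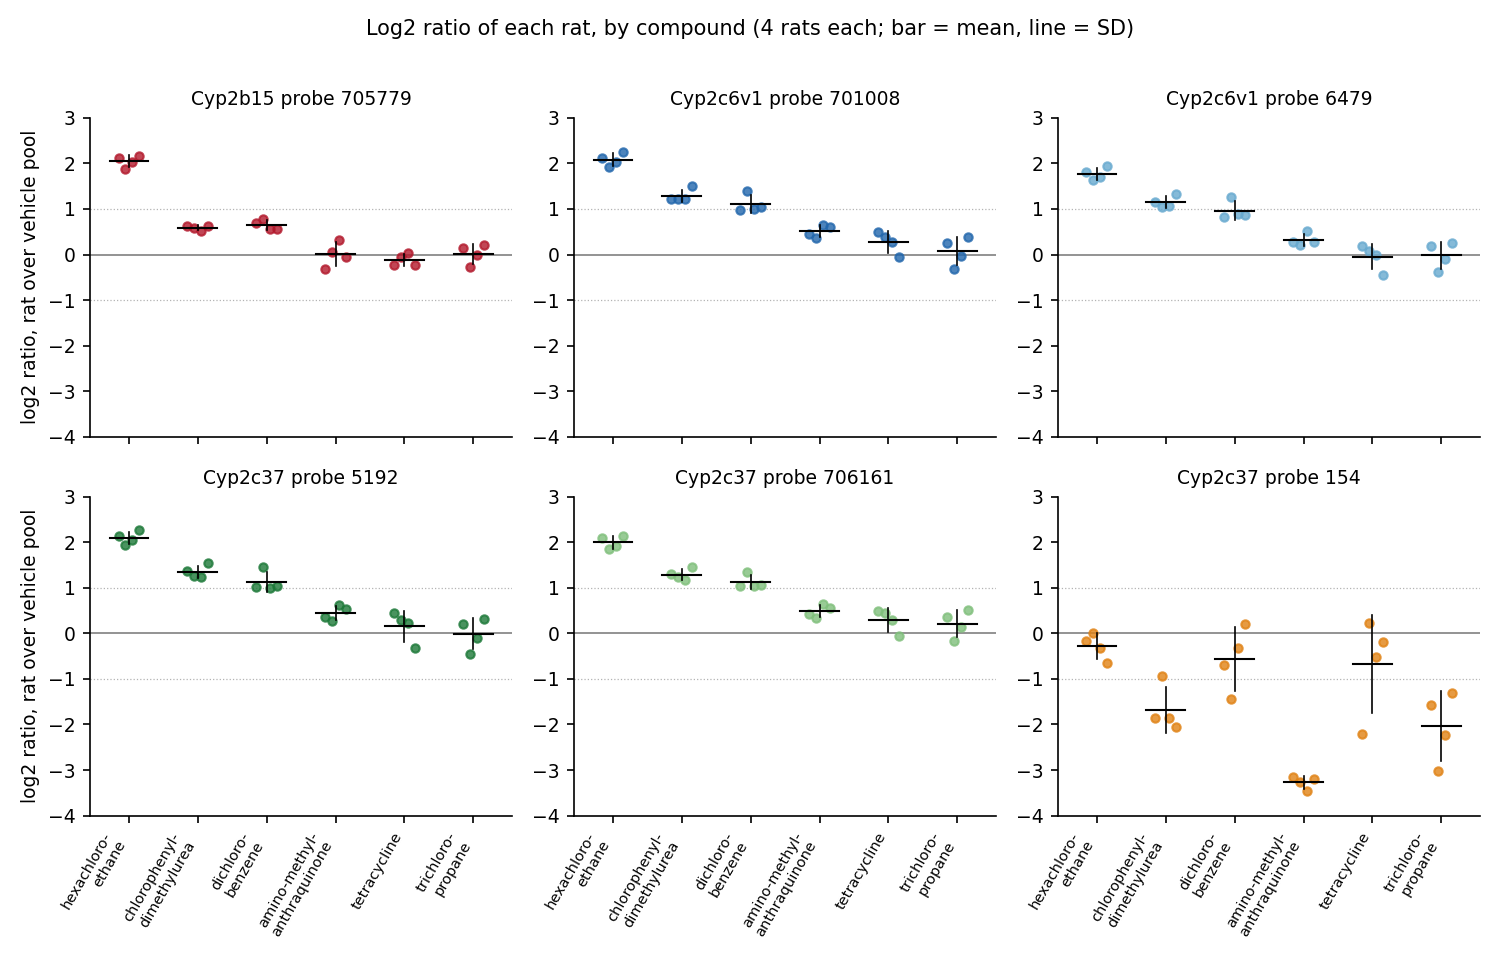
Log2 ratio of treated over pooled vehicle in each of the 24 rats (y axis) by compound (x axis, 4 rats each), in 1 panel per tested probe of the 3 genes; points are rats, bars are group means, vertical lines are SDs and dotted lines mark 2-fold. On 5 probes the hexachloroethane rats sit highest, between 1.63 and 2.26, whereas on probe 154 the 1-amino-2-methylanthraquinone rats sit lowest, between -3.47 and -3.16.

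Probe 154 carries the name Cyp2c37 and the UniGene cluster Rn.154401, the same as probe 5192, but it was called higher under no compound and lower under 3. Of these 3, only monuron was a group in which probe 5192 was called higher. The anthraquinone rats had log2 ratios of -3.16, -3.25, -3.47 and -3.20. The trichloropropane rats had -1.58, -3.03, -2.24 and -1.32, and the monuron rats -1.87, -0.94, -1.86 and -2.06. All 12 of these rats were below the vehicle pool. The hexachloroethane rats had -0.16, 0.01, -0.32 and -0.64. The 1,2-dichlorobenzene rats had -0.70, -1.44, -0.33 and 0.21, and the tetracycline rats -2.21, 0.23, -0.51 and -0.20. In these 3 groups the rats spread over both sides of 0, and tetracycline rat 1 was as low as the trichloropropane rats.

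Probe 154 fell by 3.27 ± 0.14 on the log2 scale under 1-amino-2-methylanthraquinone (adjusted p = 1.4e-08), to 0.104 of the vehicle level. It fell to 0.243 of the vehicle level under 1,2,3-trichloropropane (-2.04 ± 0.77, adjusted p = 1.9e-05) and to 0.312 under monuron (-1.68 ± 0.50, adjusted p = 0.000142). The size of these falls depended on the processing. The scanner software's ratio and the series table gave -3.86 and -3.85 under the anthraquinone, and -2.31 and -2.33 under 1,2,3-trichloropropane. Before background correction its lowest treated signal on any array was 393, against at most 362 for the dim probe 779. The means of -0.28 ± 0.28 under hexachloroethane (adjusted p = 0.489), -0.56 ± 0.70 under 1,2-dichlorobenzene (adjusted p = 0.127) and -0.67 ± 1.07 under tetracycline (adjusted p = 0.0872) did not pass. The anthraquinone stood 1.23 below 1,2,3-trichloropropane, its nearest neighbour (0.34 to 2.13, adjusted p = 0.0244, no overlap of rats); the other neighbours in its order overlapped.

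Counted over the 6 tested probes, 5 were called higher under hexachloroethane, where 0.482% of all 15557 probes were called higher. Under monuron 4 of 6 were called higher (0.816% of all probes) and under 1,2-dichlorobenzene 3 of 6 (0.848%). Under 1-amino-2-methylanthraquinone (1.36%), 1,2,3-trichloropropane (0.315%) and tetracycline (0.161%) 0 of 6 were called higher. Probe 154 was the 1 member called lower under the anthraquinone (0.906% of all probes), 1,2,3-trichloropropane (0.662%) and monuron (0.675%). By the brightest probe of each gene, 3 of 3 genes rose under hexachloroethane, 2 of 3 under monuron and under 1,2-dichlorobenzene, and 0 under the other 3 compounds. Of the 5 probes called under hexachloroethane, 4 lie in the one stretch of 2C sequence and are not independent of each other. The brightest probes of Cyp2c6v1 and Cyp2c37 are among them and match at 40 of 41 aligned bases. Counting Cyp2c6v1 and Cyp2c37 as separate genes is therefore uncertain, also under monuron and 1,2-dichlorobenzene.

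Within a rat, the ratios of the 2C probes other than 154 lay close together. Over the 24 rats, the log2 ratio of Cyp2c6v1 probe 701008 exceeded that of Cyp2c37 probe 5192 by 0.03 ± 0.08 (mean ± SD of the differences within a rat), with opposite signs in 0 of 24 rats. Against probe 706161 the difference was -0.01 ± 0.08. The 2 Cyp2c6v1 probes, 701008 and 6479, differed by 0.20 ± 0.10, and 701008 was the higher in 24 of 24 rats. On this measure 701008 was nearer to these Cyp2c37 probes than to the other probe of its own gene. Within the name Cyp2c37, probe 5192 exceeded probe 154 by 2.28 ± 1.14, was higher in 23 of 24 rats, and had the opposite sign in 18 of 24. Spots of identical sequence under 2 probe names differed by a median of only 0.019 (probe 6479), 0.031 (probe 5192) and 0.023 (probe 154), so repeat spots agreed far better than probe 154 did with the others.

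**Figure D3:**
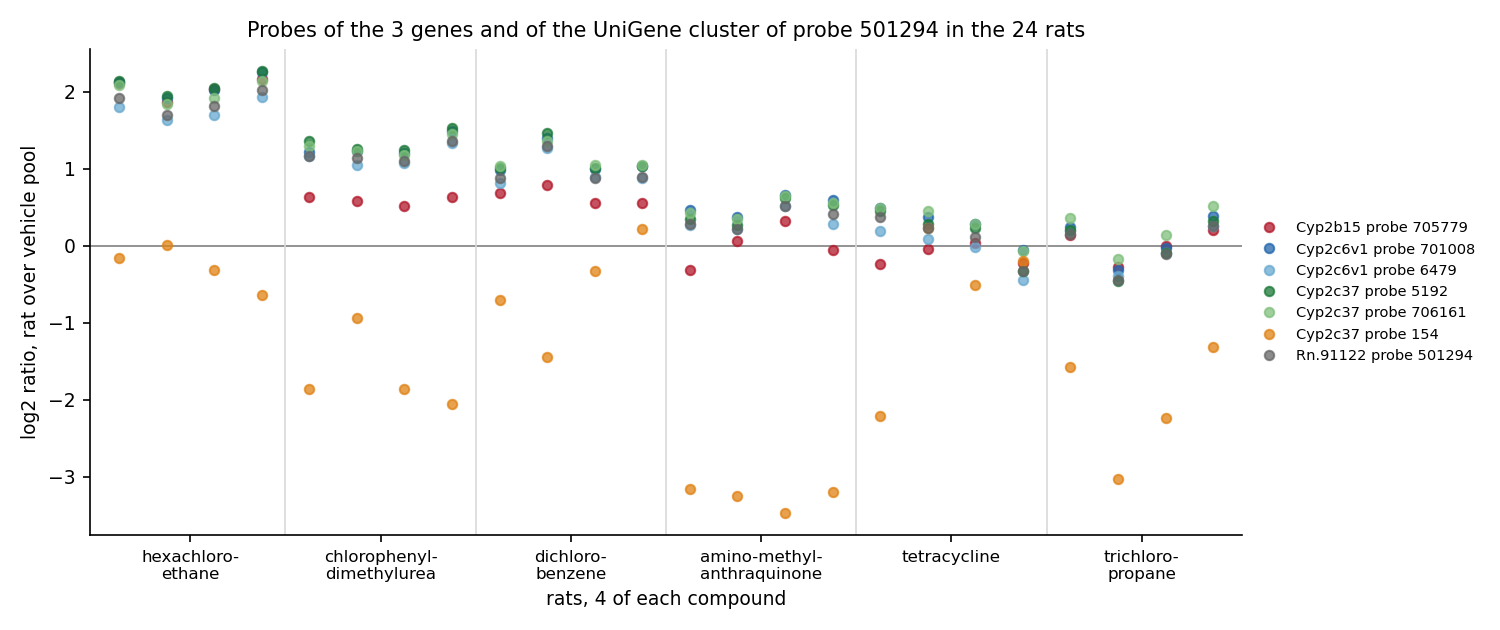
Log2 ratio over vehicle (y axis) in each of the 24 rats (x axis, 4 rats a compound) for 7 probes, 1 colour per probe. In most rats the points of the overlapping 2C probes lie close together, and probe 154 lies below probe 5192 in 23 of 24 rats.

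After loess scaling, Cyp2b15 and Cyp2c6v1 had nearly equal ratios under hexachloroethane and under 1,2,3-trichloropropane, where neither was called against vehicle. They differed more in the other groups. The ratio of Cyp2b15 (probe 705779) minus that of Cyp2c6v1 (probe 701008) was -0.03 ± 0.04 in hexachloroethane rats and -0.06 ± 0.10 in trichloropropane rats. It was -0.70 ± 0.12 in monuron rats, -0.52 ± 0.23 in anthraquinone rats, -0.45 ± 0.13 in dichlorobenzene rats and -0.39 ± 0.25 in tetracycline rats (SD, n = 4 each). After loess scaling, all rats of these last 4 groups had the larger ratio on Cyp2c6v1. These differences between probes were not tested, and they depended on the scaling. With each array centred on its median, the mean of Cyp2b15 was the lower only under monuron (0.13 against 0.27). It was 1.37 against 0.95 under hexachloroethane and 0.26 against 0.23 under 1,2-dichlorobenzene. On the scanner software's ratios the means were 2.06 and 2.30 under hexachloroethane and 0.04 and 0.29 under 1,2,3-trichloropropane. The 2 probes also differ in brightness. Relative to the median of probes within 1 log2 unit of the brightness of each, the loess means were 2.07 and 2.29 under hexachloroethane. Under 1,2,3-trichloropropane they were 0.03 and 0.30.

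Set against the mean of the other 5 compounds, in which an effect of dye that is alike on all arrays cancels, hexachloroethane was called higher on 6 of 6 member probes (0.36% of all probes). Cyp2b15 was 1.82 above that mean (2.05 against 0.23, adjusted p = 2.85e-11), Cyp2c6v1 1.43 (probe 701008, adjusted p = 1.75e-08) and Cyp2c37 1.48 (probe 5192, adjusted p = 6.04e-08). Probe 154 was also called higher there, by 1.37 (adjusted p = 0.00419), although it did not pass against vehicle, since it was lower in the other groups. Under 1,2,3-trichloropropane 1 of 6 probes was called lower than the other 5 compounds (0.341% of all probes): probe 5192 at -1.04 (adjusted p = 4.71e-06). This call rested on trichloropropane rat 2, without which the difference was -0.89 (adjusted p = 5.77e-05), under 2-fold. Probe 154 was called lower under the anthraquinone (-2.22, adjusted p = 1.37e-05, 0.379% of all probes) and higher under 1,2-dichlorobenzene (1.03, adjusted p = 0.0237, 0.328%). Against vehicle its mean under 1,2-dichlorobenzene was -0.56 and was not called, while the mean of the other 5 compounds was -1.59.

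In 2 cases a pair of compounds was scanned on the same day, and within these pairs the day cannot differ between groups, though the slide does. Hexachloroethane was given in corn oil and tetracycline in water, so in that pair the vehicle differs as well. Hexachloroethane exceeded tetracycline by 2.16 for Cyp2b15 (1.93 to 2.40, adjusted p = 1.45e-10), by 1.81 for Cyp2c6v1 probe 701008 (1.52 to 2.09, adjusted p = 2.31e-08) and by 1.94 for Cyp2c37 probe 5192, where 0.386% of all probes were called higher. Monuron minus 1,2-dichlorobenzene was -0.06 for Cyp2b15, 0.18 for Cyp2c6v1 and 0.22 for Cyp2c37 probe 5192, none called (0.604% of all probes were called higher and 0.476% lower). On probe 154 the same difference was -1.12 (adjusted p = 0.0642).

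The 4 carcinogens and the 2 non-carcinogens were not called different on these genes. Cyp2b15 averaged 0.66 over the carcinogens and 0.26 over the non-carcinogens (difference 0.40, limma adjusted p = 1 with compound as a random block). Cyp2c6v1 (probe 701008) averaged 0.99 and 0.69 in the same order (limma adjusted p = 1), and probe 154 averaged -1.82 and -0.62 (limma adjusted p = 1). Of all 15557 probes, 0 were called in this limma comparison and 241 had an unadjusted p under 0.05 (1.55%). With 4 compounds against 2, the number of compounds limits the precision.

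The size of the 2C and Cyp2b15 changes depended on how the 2 channels were scaled. With each array centred on its median in place of the loess curve, Cyp2c6v1 probe 701008 averaged 0.95 under hexachloroethane (adjusted p = 4.2e-06), 0.27 under monuron (adjusted p = 0.0907) and 0.23 under 1,2-dichlorobenzene, so all 3 calls were lost. Cyp2b15 remained called under hexachloroethane at 1.37. Its smaller ratios fell to 0.13 under monuron (0.59 after loess) and 0.26 under 1,2-dichlorobenzene (0.65 after loess). That scaling also moved the median of all probes to between -0.32 and -0.21, and relative to that median Cyp2c6v1 was 1.26 higher under hexachloroethane. Cyp2c6v1 changed sign under that scaling in the groups where its ratio was small, to -0.73 under 1-amino-2-methylanthraquinone (0.52 after loess), -0.51 under tetracycline (0.28) and -0.86 under 1,2,3-trichloropropane (0.07), so whether it lay above vehicle in these groups depended on the scaling. The 248 probes within 1 log2 unit of the brightness of 701008 had medians between -1.51 and -0.95 under it, against -0.40 to -0.19 after loess. Relative to the median of these 248 probes, 701008 was higher by 2.22 under hexachloroethane, 1.47 under monuron and 1.43 under 1,2-dichlorobenzene with median centring. After loess it was higher by 2.29, 1.52 and 1.50 in the same order. The scanner software's own ratios, scaled by its own dye normalisation, kept the 3 calls of 701008 and the call of Cyp2b15 under hexachloroethane.

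Other 2B and 2C genes gave few calls. Cyp2b1 and Cyp2b2, the classical phenobarbital-inducible 2B genes of rat, were not matched to a probe by name. One probe, 5209, has no gene symbol and is described on the array as phenobarbital-inducible P-450b messenger; it was chosen after its values were seen. Its log2 ratios were 3.24, 2.97, 3.03 and 3.20 in hexachloroethane rats. In dichlorobenzene rats they were 2.01, 2.07, 1.53 and 1.70, and in monuron rats 1.47, 1.35, 1.25 and 1.48. All 12 rats were more than 2-fold above vehicle, with the hexachloroethane rats above the rest.

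The P-450b probe averaged 3.11 ± 0.13 under hexachloroethane (8.62-fold, adjusted p = 7.74e-13), 1.83 ± 0.25 under 1,2-dichlorobenzene (3.55-fold, adjusted p = 7.64e-10) and 1.39 ± 0.11 under monuron (2.62-fold, adjusted p = 6.57e-08). Its means of 0.76 under the anthraquinone, 0.53 under 1,2,3-trichloropropane and -0.28 under tetracycline were not called. Hexachloroethane exceeded 1,2-dichlorobenzene by 1.28 on this probe (0.88 to 1.67, adjusted p = 3.36e-05). Of the 5 other Cyp2b genes listed, Cyp2b1, Cyp2b2 and Cyp2b21 were not matched to a probe by name, and Cyp2b12 was too dim to test. Only Cyp2b3 was tested, and it was not called under any compound.

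Of 10 other Cyp2c genes listed, 6 were measured and 1 was called. Cyp2c11, a male-specific P450 of rat liver that depends on the pattern of growth hormone, fell under the anthraquinone (-1.79 ± 0.54, adjusted p = 7.18e-09), monuron (-1.53 ± 0.31, adjusted p = 1.68e-07) and 1,2-dichlorobenzene (-1.30 ± 0.49, adjusted p = 8.72e-07). Its means of -0.34 under hexachloroethane, -0.53 under 1,2,3-trichloropropane and -0.70 under tetracycline were not called. Cyp2c7, the neighbour of Cyp2c6v1, averaged 0.63 under hexachloroethane and 0.57 under monuron and was not called.

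Of 11 genes listed for CAR, PXR and their partners, 8 were measured and 0 were called under any compound. CAR itself (Nr1i3) averaged 0.08 under hexachloroethane, -0.39 under monuron (adjusted p = 2.91e-07, under 2-fold) and -0.06 under 1,2-dichlorobenzene. The 7 genes for electron supply and haem synthesis were all measured and 0 were called. Por, the reductase that feeds electrons to P450 enzymes, averaged 0.87 under hexachloroethane (adjusted p = 4.66e-07), -0.56 under 1,2,3-trichloropropane and -0.45 under the anthraquinone. Alas1, the first enzyme of haem synthesis, averaged 0.78 under hexachloroethane (adjusted p = 0.0216) and -0.75 under the anthraquinone.

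Among other known targets of CAR and PXR, some were called under every compound. Of 35 listed, 29 were measured. Under hexachloroethane 8 were called higher and 0 lower (median log2 ratio 0.68, against -0.02 over all probes), under monuron 8 and 1 (0.53), and under 1,2-dichlorobenzene 10 and 2 (0.13). Under the anthraquinone 8 were called higher and 2 lower (0.30), under 1,2,3-trichloropropane 6 and 1 (0.25), and under tetracycline 2 and 0 (0.10). Of all probes, 0.482% were called higher and 0.463% lower under hexachloroethane, 0.816% and 0.675% under monuron, 0.848% and 0.797% under 1,2-dichlorobenzene, 1.36% and 0.906% under the anthraquinone, 0.315% and 0.662% under 1,2,3-trichloropropane, and 0.161% and 0.0964% under tetracycline; the counts of the lists below stand against the same shares. Under the anthraquinone, 1,2,3-trichloropropane and tetracycline, where these targets were called, neither Cyp2b15 nor Cyp2c6v1 was.

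Single targets differed in their order. The carboxylesterase Ces2c rose most under hexachloroethane (2.65 ± 0.33, adjusted p = 9.84e-13), followed by the anthraquinone (1.46) and monuron (1.17), with 0.55 under 1,2-dichlorobenzene not called. The glutathione transferase Gsta3 rose under all 6 compounds, least under tetracycline (1.54) and hexachloroethane (2.38) and most under monuron (5.25). Aldh1a1, an aldehyde dehydrogenase, averaged 1.21 under hexachloroethane and 2.60 under monuron, and Akr7a3, an aldehyde reductase, 0.83 (not called) and 2.49. Cyp3a9, a steroid and drug oxidase of the 3A family, fell under 4 compounds, with -3.91 under the anthraquinone, -3.26 under 1,2-dichlorobenzene, -2.08 under 1,2,3-trichloropropane and -1.70 under monuron, and its -0.77 under hexachloroethane was not called.

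**Figure D4:**
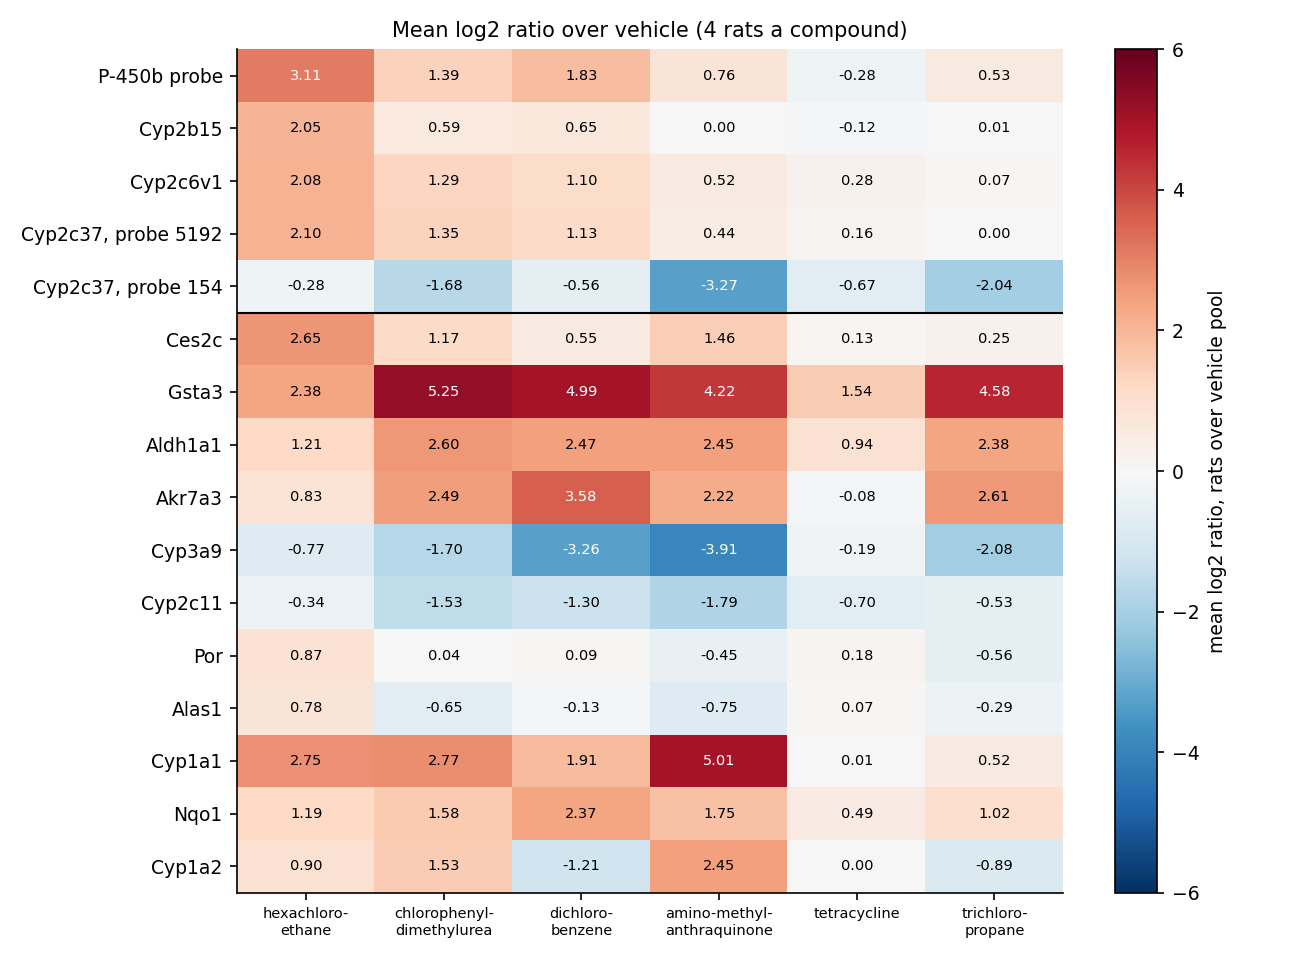
Mean log2 ratio over vehicle of 4 rats (printed in each cell and shown by colour, red above and blue below 0) for each compound (columns) and for the P-450b probe, the 3 genes and other named genes (rows; genes of the lists below the line). Ces2c is highest under hexachloroethane (2.65), as are the 3 genes, whereas Gsta3 is highest under monuron (5.25).

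Targets of other foreign-chemical receptors were listed as a contrast: 13 of 16 were measured. Of these, 2 were called higher under hexachloroethane, 3 each under the anthraquinone and monuron, 2 under 1,2-dichlorobenzene (and 1 lower), 1 under 1,2,3-trichloropropane and 0 under tetracycline. Cyp1a1, the classical target of the aryl hydrocarbon receptor, averaged 5.01 under the anthraquinone, 2.77 under monuron, 2.75 under hexachloroethane and 1.91 under 1,2-dichlorobenzene, all called. Cyp1a2, of the same receptor, averaged 2.45 under the anthraquinone and 1.53 under monuron, both called, 0.90 under hexachloroethane, not called, and -1.21 under 1,2-dichlorobenzene, called lower. Nqo1, a quinone reductase, rose under 5 compounds, most under 1,2-dichlorobenzene (2.37), and its 0.49 under tetracycline was not called.

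Markers of liver zones and of other cells were set beside these values. Of the 9 perivenous hepatocyte genes measured, where P450 genes are normally highest, 3 were called lower and 0 higher under hexachloroethane (median -0.45) and under 1,2-dichlorobenzene (-0.58). Under monuron 1 was called higher and 1 lower (0.20), under the anthraquinone 1 and 2 (-0.30), under 1,2,3-trichloropropane 0 and 1 (-0.30), and under tetracycline 0 and 0 (-0.06). The gene called higher under monuron (1.53) and the anthraquinone (2.45) was Cyp1a2, which is counted above as an aryl hydrocarbon receptor target too. Cyp1a2 was also among the 3 called lower under 1,2-dichlorobenzene (-1.21). Of 9 periportal genes 0 were called higher under any compound; 1 was called lower under hexachloroethane (median -0.55), 2 under 1,2-dichlorobenzene (-0.69), 3 under the anthraquinone (-0.60), 4 each under 1,2,3-trichloropropane (-0.76) and monuron (-0.65), and 0 under tetracycline (-0.30). Bile duct genes were called higher under the anthraquinone, 5 of 7 (median 1.47), the group in which probe 154 was lowest. Red cell precursor genes were called higher under monuron, 3 of 5 (median 1.05). Of the sex-biased liver genes, 10 of 14 were measured, and Car3, a carbonic anhydrase of male liver, was called lower under hexachloroethane (-2.89), the anthraquinone (-2.47), 1,2-dichlorobenzene (-1.65), monuron (-1.17) and tetracycline (-1.11). In the same list Sult1e1 was called lower under 1,2-dichlorobenzene (-1.64) and 1,2,3-trichloropropane (-1.44), and Socs2 under 1,2-dichlorobenzene (-1.25). The part of these groups of genes in the values of Cyp2b15, Cyp2c6v1 and Cyp2c37 was not tested.

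The genes whose ratios lay nearest to each member were found by the mean absolute difference in log2 ratio over the 24 rats, among 4683 named genes. For Cyp2b15 these were Hsp90aa1 (0.36), Psmd2 (0.38), Gsta2 (0.39), Abcd3 (0.39) and Gaa (0.40), against a median of 0.68 over the genes searched. Under hexachloroethane these 5 genes averaged from 0.80 (Abcd3) to 1.05 (Hsp90aa1), against 2.05 for Cyp2b15, so none matched the size of its rise. For Cyp2c6v1 they were Ces2 (0.41), Abcc3 (0.43), Ces2c (0.45), Cavin3 (0.46) and Me1 (0.48), against a median of 0.95, and the same 5 genes were nearest to Cyp2c37 probe 5192. For probe 154, added after its values were seen, they were Apoa4 (0.77), Cyp2c11 (0.80), Mup4l3 (0.81), Sds (0.83) and Apoa2 (0.84), against a median of 1.46.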

How the data were processed

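Liver RNA of 24 treated rats, each against pooled vehicle RNA, was measured on 2-colour Agilent arrays. Per the file headers, the deposited intensity values are mean and background signals per spot, and the LogRatio column holds log10 of red over green from Feature Extraction 9.1.3.1. The series table deposited by the authors holds log2 ratios of treated over vehicle; its direction was found by setting it against the scanner values, and how it was centred is not given in the sources used here (column medians -0.01 to 0.079).

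Signals were background corrected (normexp, offset 50) and loess normalised within each array. Control spots had weight 0 and 0 to 74 outlier spots per array were left out. Spots of identical sequence were averaged. Kept were the 15557 of 21333 sequences that, for some compound, stood well above background in the same channel of its 4 arrays. The limma fit (version 3.58.1, R 4.3.3) held 6 compound means with 18 residual degrees of freedom. Its p-values were adjusted by Benjamini-Hochberg over all probes in each comparison, and calls needed an adjusted p under 0.05 and at least 2-fold. The comparison of classes had compound as a random block (consensus correlation 0.584). Every p leaves out the spread between vehicle rats, since the pool is 1 sample, and the number of arrays limits the precision. The fit recovered 100% of 200 changed probes and called 0 unchanged ones on simulated data. Noise there was independent between arrays and every change was set past 2-fold. The simulation therefore does not give the error rate in the real data or for smaller changes.

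The members and gene lists were chosen with earlier results of these data known. Named from each list that is no marker list were the members called against vehicle under at least 1 compound, up to 5 with the largest change; the brightest kept probe stands for a gene. Receptor and zone genes outside that rule are named for their role. Gene names come from the arrays and the RefSeq table (GRCr8); 11872 of 21333 sequences have no current name. Same-numbered rats of different compounds correlated by 0.05 on average (-0.26 to 0.40) and differently numbered ones by -0.02, so the numbers do not pair rats. Alternatives tried were median centring, the scanner's ratio, the series table, no filter on dim probes, 1 probe per gene, a replicate block, each compound alone, each scan day alone and leaving out each rat; the probe name as the feature was added after seeing the data.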

Additional observations from a re-analysis of the deposited data

Results flagged for a closer look

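Of 36 groups of 4 rats, over the 6 tested probes and 6 compounds, 5 held 1 rat far from the others by Dixon's 95% limit for the gap over the range; chance gives about 1 in 20 groups. Of these, 4 were the same rat, rat 2 of the 1,2-dichlorobenzene group, the highest on probes 701008 (1.396, against 1.037 for the nearest rat), 6479 (1.267 against 0.887), 5192 (1.463 against 1.033) and 706161 (1.355 against 1.051). These 4 probes overlap in sequence or are tied by overlaps and are not 4 separate observations. The fifth was rat 4 of the monuron group on probe 701008 (1.495, against 1.224 for the nearest rat). Without the 1,2-dichlorobenzene rat the means were 1.00 on probe 701008, 0.86 on 6479, 1.01 on 5192 and 1.04 on 706161, and the calls of the 3 probes called there were kept. Without the monuron rat the mean of probe 701008 was 1.22, still called.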

How the results depend on the processing

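Leaving the dim probes in, a replicate block (compared on 28 counts and 54 single values), the probe name as the feature, each compound fitted alone and each scan day alone changed no call of the members. No called value changed sign under any alternative. Median centring lowered bright probes; the genes called higher became 1 of 3 under hexachloroethane, 0 under monuron and 0 under 1,2-dichlorobenzene, and 0 were lower under 1,2,3-trichloropropane than under the other 5 compounds.

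Counts of probes called against vehicle were 147 (hexachloroethane), 152 (1,2,3-trichloropropane), 353 (1-amino-2-methylanthraquinone), 232 (monuron), 256 (1,2-dichlorobenzene) and 40 (tetracycline). In the same order of compounds median centring gave 913, 612, 1495, 650, 659 and 249, the scanner's ratio gave 391, 424, 811, 432, 509 and 137, the series table gave 390, 413, 790, 428, 497 and 152, and 1 probe per gene gave 59, 64, 137, 86, 109 and 18, which tests fewer features. Against the other 5 compounds the counts were 110, 75, 212, 103, 85 and 99, and they were 272, 177, 534, 190, 196 and 244 with the scanner's ratio, 266, 180, 525, 190, 186 and 241 with the series table, and 49, 29, 84, 40, 37 and 41 with 1 probe per gene. Summed over the 15 pairs of compounds, 3328 calls became 7517, 7431 and 1273 under these 3 settings. The series table called 2 of the 3 genes lower under 1,2,3-trichloropropane than under the other 5 compounds. The causes of these changes in the counts were not tested.

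Leaving out 1 rat at a time gave 0 to 2 of the 3 genes for that last comparison and 24 (without tetracycline rat 1) to 71 (without tetracycline rat 4) probes called under tetracycline. Probe 701008 passed there without trichloropropane rat 1 (-1.04), trichloropropane rat 4 (-1.08) or tetracycline rat 4 (-1.001). Probe 6479 was called under 1,2-dichlorobenzene without that group's rat 1 (1.01).

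Uncalled values against vehicle did change sign. Median centring gave, under 1-amino-2-methylanthraquinone, -0.58 (probe 705779), -0.73 (701008), -0.86 (6479), -0.78 (5192) and -0.59 (706161); under tetracycline, -0.51 (701008), -0.61 (5192) and -0.39 (706161); and under 1,2,3-trichloropropane, -0.47 (705779), -0.86 (701008) and -0.61 (706161). The scanner's ratio and the series table gave 0.18 and 0.17 for 5192 and 0.16 and 0.15 for 6479 under 1,2,3-trichloropropane, and 0.13 and 0.12 for 6479 under tetracycline. For 705779 under the anthraquinone the scanner's ratio gave -0.0017. Leaving out 1 rat gave, under 1,2,3-trichloropropane, -0.051 to 0.11 (705779), -0.030 to 0.20 (701008), -0.10 to 0.11 (6479) and -0.11 to 0.15 (5192), with -0.10 to 0.11 for 705779 under the anthraquinone and -0.12 to 0.087 for 6479 under tetracycline.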
